A study of Mus musculus with 8 samples.

Results

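Axon guidance molecules are secreted or membrane-bound cues and their receptors, and they were followed here in mesenchymal stem cells from mouse femur marrow after exposure to ellagic acid (EA), a plant polyphenol. The genes were taken by name, as all semaphorins of classes 3 to 7, plexins, neuropilins, Eph receptors, ephrins, Slits, Robos, netrins, Unc5 receptors, Dcc and neogenin (Neo1) in the table of read counts. The name pattern found 70 of the 21899 protein-coding genes: 31 semaphorin, plexin and neuropilin genes, 22 Eph and ephrin genes, 10 netrin ligand and receptor genes, and 7 Slit and Robo genes. The tested cells received 10 µM EA for 48 h (EA, 4 libraries), and the control cells received DMSO, the solvent, for the same time (control, 4 libraries). All libraries were made from poly(A) RNA. Strain, age and passage are not given in the labels. Nor do the labels tell whether libraries of a group derive from separate animals or cultures, so the spread behind each p-value is that of these libraries and may be technical.

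In guidance signalling, a ligand on or released by one cell binds a receptor on another and changes its cytoskeleton and adhesion. Class 3 semaphorins are secreted and act through neuropilins and plexins, while the other vertebrate classes are anchored in the membrane and mostly bind plexins directly. Ephrins are themselves membrane-bound, by a lipid anchor in the A class and a transmembrane segment in the B class, so that Eph and ephrin both signal into their own cells. Slits bind Robo receptors, and netrins bind Dcc, neogenin and Unc5 receptors. In mouse bone these systems are known for contacts between bone-forming and bone-resorbing cells, for example Sema3a, which favours bone formation, ephrin-B2 and EphB4, which signal between osteoclasts and osteoblasts, and Sema4d, which osteoclasts use to restrain osteoblasts through plexin-B1.

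Total counts ranged from 14112519 to 17390200 reads in EA libraries and from 14654286 to 16637984 reads in control libraries. Guidance genes took 0.278 to 0.287% of them in EA and 0.332 to 0.354% in control. These are shares of raw totals, a scale on which 1940 of all tested genes were called higher and 7196 lower. They therefore do not show a fall of guidance genes under the scaling used for the tests. Control library 4 stood apart on the second principal component, at −21.3, against 1.03 to 11.8 for the other control libraries. Of 11 stromal markers 10 were tested, and 5 rose and 2 fell, where 33.1% of all tested genes rose and 34.2% fell. Pdgfra was 4.59-fold higher, with 34986 reads in EA and 9665 in control. Ly6a was 2.82-fold lower, with 652 reads in EA and 2336 in control, and Vcam1 1.49-fold lower. Thy1, a standard marker of these cells, had 7 reads in EA and 12 in control. The endothelial list summed to 1.82 to 2.92 CPM (reads scaled to a common library size) in EA and 2.37 to 4.42 CPM in control, and the epithelial list to 0.356 to 0.884 CPM in EA and 0.533 to 1.44 CPM in control. The neural and glial list summed to 45.5 to 51.3 CPM in EA and 31.3 to 36.5 CPM in control, with 3 of 8 genes higher and none lower, although Sox10 had no read and Rbfox3 had 1. Most of this sum was Tubb3, at 34.0 CPM in EA and 25.4 CPM in control. The leukocyte list summed to 59.2 to 63.7 CPM in EA and 59.4 to 74.7 CPM in control, with Cd14 3.53-fold lower and Lyz2 1.49-fold higher. Nearly all of it was Lyz2, at 51.0 CPM in EA and 34.3 CPM in control, and Cd14, at 9.65 and 34.0 CPM. Other members had few reads: Ptprc 17 in EA and 16 in control, Csf1r 22 and 23, Cd68 58 and 97. Adgre1 had 2 and 5, and Itgam and Tyrobp each had 0 and 1. The osteoclast list summed to 116 to 130 CPM in EA and 108 to 135 CPM in control, with Calcr and Dcstamp at 0 reads. Ctsk made up nearly all of this sum, with 6805 reads in EA and 8574 in control. Acp5 had only 6 reads in EA and 8 in control, and Ocstamp 0 and 2. The part of such cells in the results was not tested.

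The promoters of 4 members are shown because these had the largest changes, 2 in each direction, among called genes with a single RefSeq promoter that starts within 30 bases of an annotated transcript start. Each is the 250 bases before the gene's start, read 5′ to 3′ on the gene's strand, from RefSeq on build GRCm38.p6, while the counts used build GRCm39. Capitals mark the motifs searched on both strands. The GC box, bound by factors of the Sp family, was searched as GGGCGG. The TATA box, which places the start of transcription, was searched as TATAAA. The SMAD element, read by factors below the TGF-beta receptors, was searched as CAGACA. The AP-1 element, bound by Fos and Jun proteins, was searched as TGACTCA. The TEAD element, bound by partners of the Yap protein, was searched as CATTCC. No hit in the printed windows overlapped another.
The promoter of Sema7a lies at chr9:57939862-57940111, plus strand.
Sema7a: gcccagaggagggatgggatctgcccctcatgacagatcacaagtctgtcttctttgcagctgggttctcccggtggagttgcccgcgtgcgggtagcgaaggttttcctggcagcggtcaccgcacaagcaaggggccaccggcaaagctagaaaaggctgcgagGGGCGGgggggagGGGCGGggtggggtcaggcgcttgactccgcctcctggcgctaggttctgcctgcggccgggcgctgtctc
The promoter of Unc5b lies at chr10:60831582-60831831, minus strand.
Unc5b: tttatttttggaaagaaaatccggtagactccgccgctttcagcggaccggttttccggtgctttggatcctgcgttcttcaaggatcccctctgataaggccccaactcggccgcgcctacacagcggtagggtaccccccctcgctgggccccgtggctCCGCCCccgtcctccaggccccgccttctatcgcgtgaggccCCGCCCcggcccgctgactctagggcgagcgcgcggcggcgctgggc
The promoter of Efna4 lies at chr3:89338029-89338278, minus strand.
Efna4: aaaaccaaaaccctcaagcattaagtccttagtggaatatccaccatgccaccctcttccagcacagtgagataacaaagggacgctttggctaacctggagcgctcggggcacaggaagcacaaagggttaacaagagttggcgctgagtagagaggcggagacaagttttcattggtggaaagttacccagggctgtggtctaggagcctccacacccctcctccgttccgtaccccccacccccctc
The promoter of Slit2 lies at chr5:47982905-47983154, plus strand.
Slit2: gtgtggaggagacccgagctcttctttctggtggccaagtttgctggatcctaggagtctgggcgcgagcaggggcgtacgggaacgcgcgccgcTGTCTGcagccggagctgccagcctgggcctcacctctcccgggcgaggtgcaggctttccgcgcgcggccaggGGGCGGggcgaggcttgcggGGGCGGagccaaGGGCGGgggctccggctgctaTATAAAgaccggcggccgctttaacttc
The GC box stood in the Sema7a, Unc5b and Slit2 windows, and the Slit2 window also held a TATA box 28 to 23 bases before the start and a SMAD element 155 to 150 bases before it. None of the 5 motifs stood in the Efna4 window. Of 32851 RefSeq promoter windows of this length, 32.7% held a GC box, 17.1% a SMAD element, 12.6% a TEAD element, 12.4% a TATA box and 4.46% an AP-1 element. Among members with a promoter in the table, a GC box was found in 15 of 18 that were higher with EA and 13 of 15 that were lower, and a SMAD element in 4 of 18 higher and 2 of 15 lower. A member counted if any of its windows held the motif, whereas the shares over all promoters are per window, so the units differ. GC content was 66.4% in the Sema7a window, 66.8% in Unc5b, 69.6% in Slit2 and 54.4% in Efna4. The median of all windows was 52.4%. The motif hits are matches of letters and were not tested as sites.

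The first question was which guidance genes differed after 48 h with EA. Of the 70 genes 46 had enough reads to be tested, and of these 19 rose and 18 fell (quasi-likelihood test of edgeR with Benjamini-Hochberg adjustment over 11777 genes, called under 0.05). That is 80.4% of those tested, against 67.2% of all tested genes, of which 33.1% were higher and 34.2% lower. The libraries of the groups did not overlap for 36 of the 46, against 60.6% of all tested genes. Among called genes, 8 rose and 6 fell by 2-fold or more, where 8.99% and 8.68% of all tested genes did so. The median log2 fold change was −0.01 over the 46 and −0.02 over all tested genes.

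Ligand and receptor genes were distributed differently over the directions, although this difference was not tested. Among 27 tested ligand genes, 7 (25.9%) were called higher and 13 (48.1%) lower (median log2 fold change −0.40). Among 19 tested receptor genes, 12 (63.2%) were called higher and 5 (26.3%) lower (median 0.47). Of all tested genes 33.1% were higher and 34.2% lower. The receptor counts depended on scaling, with 9 higher and 7 lower with library totals and 8 and 7 with either FPKM fit. Ligands were 6 higher and 15 lower with library totals. Scaling moved all genes as well, with 1940 of 11777 higher and 7196 lower with library totals. The receptor margins with library totals and FPKM were small, and whether receptors differ there from all tested genes was not tested. Among the falling ligands were Sema3a, Sema3c, Sema3e, Slit2 and netrin-1 (Ntn1), and among the rising receptors Nrp2, Plxnd1, Ephb3 and Unc5b. Fewer cells of a type and less RNA per cell cannot be told apart in these bulk samples.

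The balance of directions depended on how libraries were scaled. Changes are given with TMM scaling, a correction for library composition. Scaling by library totals alone moved the median log2 fold change over all tested genes by −0.36, and 15 guidance genes were then higher and 22 lower. Of all 11777 tested genes, library totals called 1940 higher and 7196 lower, against 3893 and 4027 with TMM scaling. On the deposited FPKM values (reads scaled to gene length and library total), limma called 14 higher and 21 lower with a pseudocount of 1, and 14 higher and 23 lower with 0.1. Of all tested genes, these fits called 1924 higher and 7170 lower with a pseudocount of 1, and 1922 and 7179 with 0.1. Neo1 was the called member whose direction turned. Without control library 4 the counts were 20 higher and 20 lower.

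**Figure D1:**
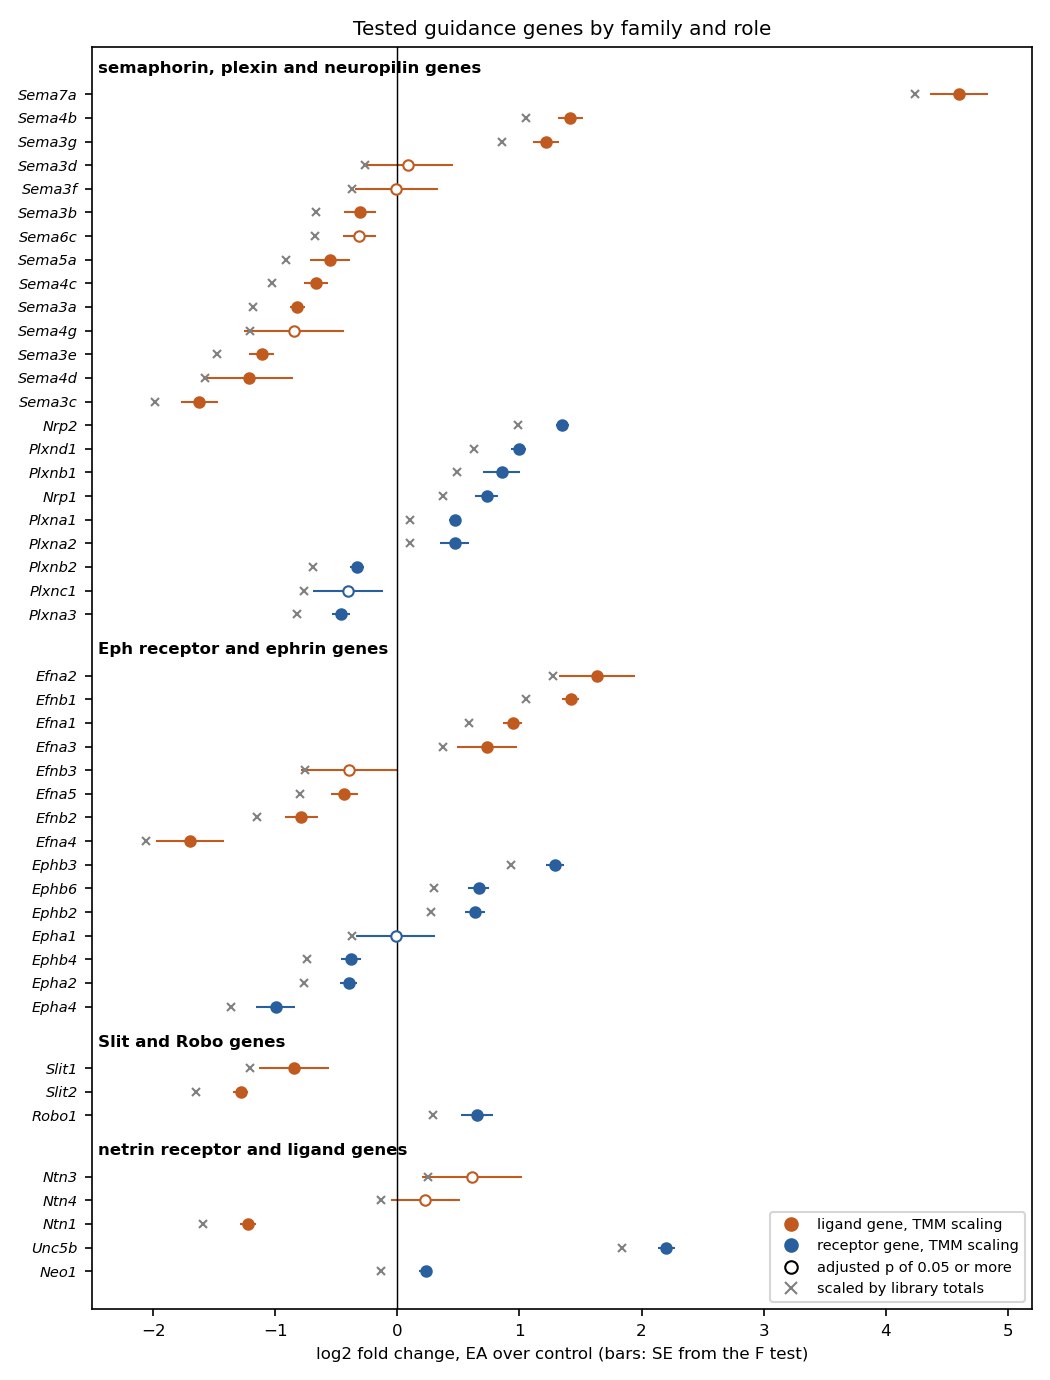
Log2 fold change of EA over control (horizontal axis) for the 46 tested guidance genes, grouped by family, ligands in orange and receptors in blue, with the SE derived from the F test as bars and open circles for genes at an adjusted p of 0.05 or more. Grey crosses give the same value with library totals as the scaling. Sema7a stands farthest to the right at 4.60, and with TMM scaling most receptor genes lie right of 0.

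Per kilobase of gene length, transcripts of Plxnb2, Plxna1 and Epha2 were among the 5 most abundant of the set in both groups. In EA cells the highest levels were 46.4 ± 1.68 FPKM for Plxnb2, 37.5 ± 0.878 for Plxna1, 36.0 ± 1.05 for Nrp2, 35.2 ± 1.05 for Plxnd1 and 32.9 ± 2.15 for Epha2 (SD, n = 4). In control cells they were 75.0 ± 5.50 FPKM for Plxnb2, 56.6 ± 5.43 for Ntn1, 55.8 ± 5.46 for Epha2, 34.8 ± 1.05 for Plxna1 and 33.9 ± 7.46 for Sema3c. Ntn1, at 18.8 ± 0.867 FPKM, and Sema3c, at 8.55 ± 0.733 FPKM, were no longer among the 5 highest in EA. In the EA order Nrp2 and Plxnd1, and in the control order Ntn1 and Epha2 and also Plxna1 and Sema3c, differed by less than their SD, and Plxna1 and Nrp2 in EA by little more, so these ranks are not resolved.

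Of 7 class 3 semaphorins, the secreted ligands of neuropilins, 4 (57.1%) were called lower and 1 (14.3%) higher. Of all tested genes 34.2% were lower and 33.1% higher. Among the 4, Sema3b lost its call in several alternative runs. Sema3c was at 64.3, 67.9, 66.7 and 78.2 CPM in EA libraries 1 to 4, against 193, 211, 169 and 280.5 CPM in the control libraries. The groups were far apart, and control library 4 was the highest of all. Sema3c was 3.08-fold lower with EA (log2 fold change −1.62 ± 0.15, SE derived from the F test; adjusted p = 6.38e-06), and without control library 4 its log2 fold change was −1.46. Sema3a (chromosome 5, 13175381 to 13652533, GRCm39), which repels growing axons and in mice favours bone formation, was at 165, 179.9, 168 and 185 CPM in EA libraries, against 306, 287, 303 and 339 CPM in control libraries. All EA libraries lay below all control libraries, a 1.77-fold fall (adjusted p = 2.05e-10). Sema3e, which binds plexin-D1 without a neuropilin, was at 12.7, 12.3, 15.3 and 11.2 CPM in EA and at 25.9, 28.3, 28.4 and 28.9 CPM in control. It fell 2.16-fold (adjusted p = 4.73e-09).

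Sema3g went against the other called members of its class. Its level was 47.0, 43.6, 44.9 and 42.5 CPM in EA libraries, against 21.3, 19.5, 21.8 and 14.0 CPM in control libraries. The groups did not overlap, and control library 4 was the lowest. Sema3g rose 2.33-fold (log2 fold change 1.22 ± 0.11; adjusted p = 9.74e-09). Sema3b was 1.24-fold lower at 7.64 ± 1.17 CPM in EA and 9.45 ± 0.549 CPM in control (adjusted p = 0.0458), but its libraries overlapped and the call was lost without any one of 6 libraries. Sema3d and Sema3f, below 2 CPM in both groups, were not called (adjusted p = 0.838 and 0.984).

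The membrane-bound semaphorins moved in both directions, and Sema7a changed more than any other tested guidance gene. Sema7a (chromosome 9, 57847395 to 57870148, GRCm39) encodes a lipid-anchored semaphorin that signals through integrins and plexin-C1. It had 19.2, 15.2, 17.5 and 15.0 CPM in EA libraries, against 1.21, 0.361, 0.283 and 0.853 CPM in control libraries. In reads this was 925 in EA and 48 in control, so the low level in control rests on few reads. Sema7a rose 24.3-fold (log2 fold change 4.60 ± 0.24; adjusted p = 2.74e-12).

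Sema4b, a transmembrane semaphorin, was at 47.3, 50.8, 58.8 and 65.9 CPM in EA libraries and at 23.6, 20.2, 21.1 and 18.6 CPM in control libraries. It rose 2.67-fold with no overlap of the groups (adjusted p = 3.35e-10). Its relative Sema4c, a ligand of plexin-B2, was at 14.3, 13.2, 12.2 and 13.2 CPM in EA, against 23.1, 19.6, 21.4 and 19.6 CPM in control. The fall of Sema4c was 1.58-fold (adjusted p = 5.45e-06). Sema4d was low throughout, at 0.572 ± 0.266 CPM in EA and 1.32 ± 0.113 CPM in control, and was 2.33-fold lower (adjusted p = 0.00535). Sema5a was 1.47-fold lower at 6.02 ± 1.07 CPM in EA and 8.85 ± 1.87 CPM in control (adjusted p = 0.00636). Sema4g and Sema6c were not called (adjusted p = 0.0737 and 0.0506), with log2 fold changes of −0.85 and −0.31, and both were called lower with upper-quartile factors and with library totals.

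Among tested semaphorin receptors 6 of 9 (66.7%) rose and 2 (22.2%) fell, against 33.1% and 34.2% of all tested genes. Nrp2, a co-receptor for class 3 semaphorins and for vascular endothelial growth factors, was at 467, 501, 481 and 484 CPM in EA libraries, against 188, 194, 183 and 193 CPM in control libraries. The spread within either group was small beside the gap, and Nrp2 rose 2.55-fold (adjusted p = 3.56e-15). Nrp1 rose 1.66-fold, at 55.5 ± 8.16 CPM in EA and 33.4 ± 3.02 CPM in control (adjusted p = 1.75e-06). Plxnd1, the receptor of Sema3e, was at 289, 295, 300.1 and 282 CPM in EA libraries and at 158, 139, 155 and 133 CPM in control libraries. It rose 1.99-fold without overlap (adjusted p = 1.01e-11).

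Plexins of the A and B classes divided. Plxna1 was at 391, 372, 390.2 and 387 CPM in EA libraries and at 291, 273, 270.1 and 277 CPM in control libraries, and rose 1.38-fold (adjusted p = 7.42e-08). Plxna2 also rose 1.38-fold (adjusted p = 0.00201) and Plxnb1, the receptor of Sema4d, 1.81-fold to 8.05 ± 0.866 CPM in EA, against 4.45 ± 0.733 CPM in control (adjusted p = 5.40e-05). The rises of Plxna1 and Plxna2 were not called with library totals or FPKM. Plxna3, a partner of neuropilin 2, was 1.38-fold lower at 66.5 ± 4.31 CPM in EA and 91.6 ± 8.84 CPM in control (adjusted p = 1.20e-05). Plxnb2 was 1.26-fold lower at 406 ± 14.1 CPM in EA and 511 ± 37.3 CPM in control (adjusted p = 3.41e-05). Plxnc1, a receptor of Sema7a, was not called, at 1.66 ± 0.688 CPM in EA and 2.22 ± 0.368 CPM in control (adjusted p = 0.216), but was called lower with library totals (adjusted p = 0.0195) and with both FPKM fits (0.0338 and 0.0281).

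**Figure D2:**
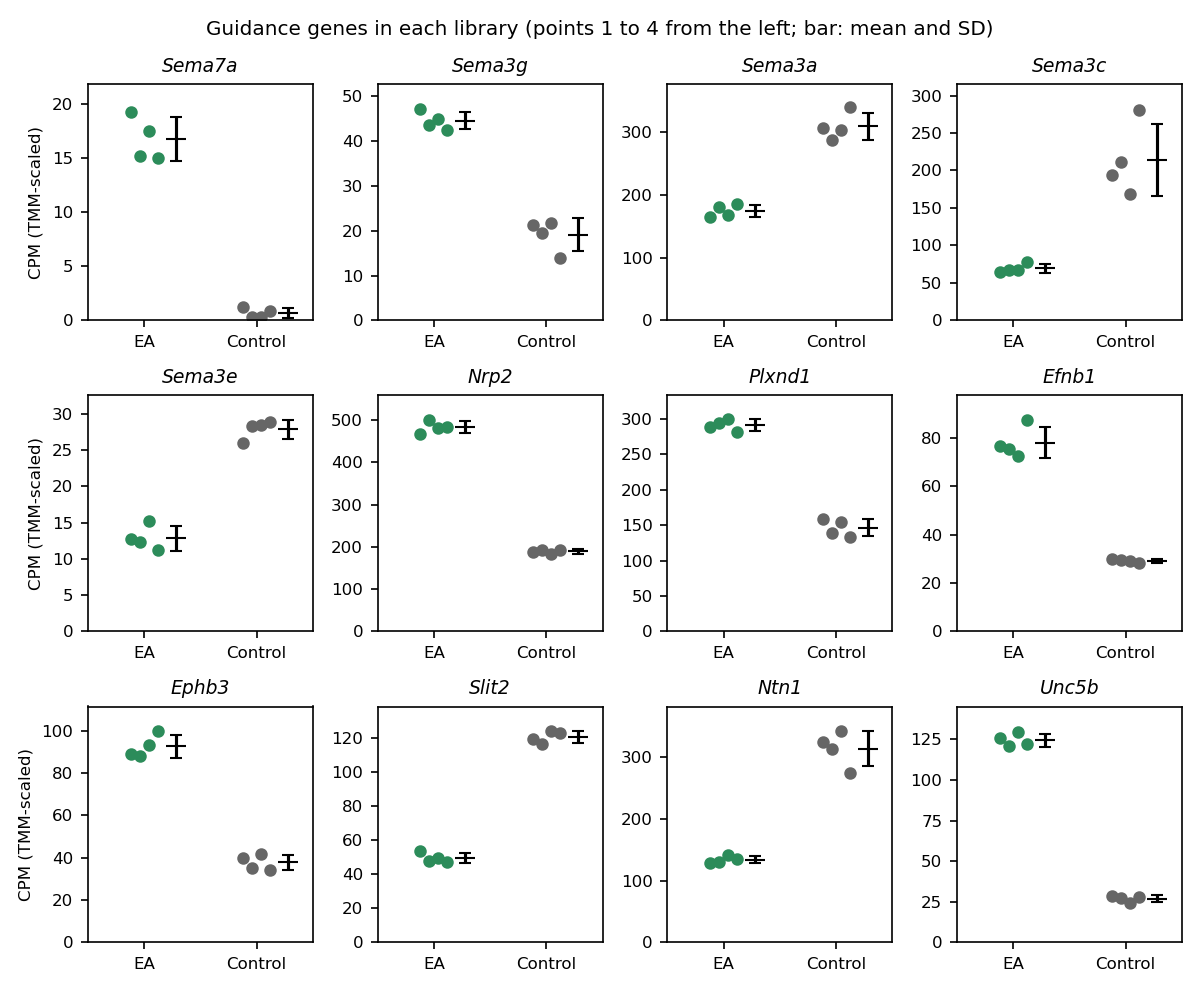
TMM-scaled CPM (vertical axes, from 0) of 12 guidance genes in each EA library (green) and each control library (grey), with the mean and SD of each group beside the points. The groups do not overlap in any of the 12 panels, and control library 4 is the highest point for Sema3c, the lowest for Sema3g and the lowest of the control points for Ntn1.

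Ephrin genes, which encode membrane-bound ligands, were all tested, and 4 of 8 (50%) rose and 3 (37.5%) fell. Of all tested genes 33.1% rose and 34.2% fell. Efnb1, the ephrin-B1 gene on chromosome X, was at 76.6, 75.3, 72.6 and 87.2 CPM in EA libraries, against 29.8, 29.5, 28.9 and 28.1 CPM in control libraries. All EA libraries lay far above control, and Efnb1 rose 2.68-fold (log2 fold change 1.42 ± 0.07; adjusted p = 3.56e-13). Efna1, a ligand of EphA2, was at 51.6, 55.1, 63.1 and 64.0 CPM in EA libraries and at 31.2, 30.3, 29.5 and 30.6 CPM in control libraries, and rose 1.93-fold (adjusted p = 9.91e-10). Efna2 rose 3.11-fold from a low level, at 3.06 ± 0.994 CPM in EA and 0.970 ± 0.386 CPM in control (adjusted p = 0.000102). Efna3 rose 1.66-fold (adjusted p = 0.0135), a call lost without EA library 1 (adjusted p = 0.0714), with library totals and with FPKM.

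The other ephrins were lower or not called. Efnb2, the ephrin-B2 gene, was at 7.24, 6.70, 5.79 and 6.90 CPM in EA libraries, against 9.52, 13.4, 11.7 and 11.3 CPM in control libraries. It fell 1.73-fold without overlap (adjusted p = 2.89e-05). Efna4 was 3.25-fold lower at 0.899 ± 0.294 CPM in EA and 2.91 ± 0.349 CPM in control (adjusted p = 1.81e-05), and Efna5 1.35-fold lower at 14.8 ± 1.07 CPM in EA and 19.99 ± 3.09 CPM in control (adjusted p = 0.00185). Efnb3, with 36 reads in EA and 61 in control, was not called (adjusted p = 0.379).

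Of 7 tested Eph receptor genes 3 (42.9%) rose, all of the B class, and 3 (42.9%) fell. The shares of all tested genes were 33.1% and 34.2%. Ephb3 was at 88.9, 88.2, 93.3 and 99.9 CPM in EA libraries and at 39.7, 35.3, 41.8 and 34.3 CPM in control libraries. It rose 2.45-fold (log2 fold change 1.29 ± 0.07; adjusted p = 2.75e-12). Ephb6, whose kinase domain is inactive, was at 84.98, 74.3, 86.3 and 76.2 CPM in EA and at 53.5, 51.4, 57.2 and 40.9 CPM in control, and rose 1.59-fold (adjusted p = 2.24e-06). Ephb2 rose 1.55-fold, at 73.1 ± 9.08 CPM in EA and 47.0 ± 4.18 CPM in control (adjusted p = 2.10e-06).

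Ephb4, the main receptor of ephrin-B2, went against the other tested EphB genes. Its level was 32.6, 34.5, 36.0 and 39.6 CPM in EA libraries, against 52.5, 43.9, 47.1 and 42.2 CPM in control libraries, a 1.30-fold fall (adjusted p = 0.000415). The highest EA library and the lowest control library were close. Epha2, which had the highest level per length of the Eph receptors in both groups, was at 163, 169, 174 and 191 CPM in EA and at 254, 211, 209 and 247 CPM in control, and fell 1.32-fold (adjusted p = 4.07e-05). Epha4, a receptor for both ephrin classes, was at 4.10, 3.46, 4.03 and 4.84 CPM in EA and at 7.92, 7.16, 7.57 and 10.2 CPM in control, and fell without overlap (adjusted p = 1.40e-05). Epha1 was not called (adjusted p = 0.970), and it overlaps 1727 bases of Zyx, a gene with 56217 reads in EA and 50302 in control on the other strand, from which its reads cannot be told apart without a stated strand setting.

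In the Slit and Robo family the tested ligands fell and the tested receptor rose. Slit2 was at 53.9, 48.0, 49.5 and 47.3 CPM in EA libraries, against 119, 117, 125 and 123.1 CPM in control libraries. The gap was many times the spread, and Slit2 fell 2.44-fold (log2 fold change −1.29 ± 0.06; adjusted p = 1.86e-13). Slit1 was 1.80-fold lower at 1.38 ± 0.359 CPM in EA and 2.51 ± 0.847 CPM in control (adjusted p = 0.0129), and was not called without control library 2 (adjusted p = 0.0815). Robo1 was at 13.8, 13.8, 14.8 and 11.1 CPM in EA libraries and at 7.23, 7.82, 8.87 and 10.0 CPM in control libraries. It rose 1.57-fold (adjusted p = 0.000157), a call that FPKM did not give (adjusted p = 0.114 with a pseudocount of 1 and 0.144 with 0.1). Slit3, Robo2, Robo3 and Robo4 had too few reads to be tested.

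In the netrin family the ligand Ntn1 fell and its receptor Unc5b rose. Ntn1 (chromosome 11, 68100190 to 68291649, GRCm39), the gene of secreted netrin-1, was at 128, 129.7, 141 and 135 CPM in EA libraries, against 324, 312, 342 and 274 CPM in control libraries. All EA libraries were below all control libraries, a 2.34-fold fall (log2 fold change −1.23 ± 0.07; adjusted p = 1.01e-12). Unc5b (chromosome 10, 60598372 to 60667360, GRCm39), a repulsive netrin receptor, was at 126, 121, 129 and 122 CPM in EA libraries, against 28.7, 27.3, 24.3 and 27.8 CPM in control libraries. Unc5b rose 4.61-fold (log2 fold change 2.20 ± 0.07; adjusted p = 9.23e-17), the lowest p of all 46 tested members.

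Neo1 encodes neogenin, which binds netrins and repulsive guidance molecules. It was at 128, 121, 125 and 124 CPM in EA libraries and at 108, 107, 105 and 105 CPM in control libraries, a rise of 1.17-fold (adjusted p = 0.000831) that turned into a fall with library totals (log2 fold change −0.13; adjusted p = 0.0313). Netrin receptors other than Unc5b and Neo1 were at or near 0, with 6 reads in EA and 2 in control for Dcc. Ntn3 and Ntn4 were not called (adjusted p = 0.193 and 0.492), and Ntn3 overlaps Tbc1d24 on the same strand.

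Since scaling moved the split into higher and lower genes, the make-up of each group of related genes was also taken within each library, where scaling cancels. These are shares of the summed FPKM of the group. Unc5b made up 57.7, 58.2, 58.9 and 57.7% of netrin receptor FPKM in EA libraries, against 26.9, 26.1, 24.4 and 27.0% in control libraries, with nearly all of the rest from Neo1. Among class 3 semaphorins Sema3g made up 30.1, 27.2, 28.4 and 25.2% in EA and 7.97, 7.15, 8.60 and 4.27% in control. The share of Sema3c was 27.4 ± 1.46% in EA and 48.1 ± 5.18% in control, while that of Sema3a, 35.5 ± 0.962% in EA and 36.2 ± 2.48% in control, overlapped between the groups.

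Sema4b and Sema4c exchanged rank within class 4. Sema4b held 75.0 ± 3.55% in EA and 42.7 ± 0.701% in control, and Sema4c 22.2 ± 3.31% in EA and 52.6 ± 1.15% in control. Among plexins the share of Plxnd1 was 27.5 ± 0.707% in EA and 15.4 ± 0.683% in control, and that of Plxnb2 36.2 ± 0.604% in EA and 51.0 ± 0.857% in control. Among EphB receptors Ephb3 held 28.6 ± 1.60% in EA and 17.3 ± 0.682% in control, against 15.8 ± 1.34% in EA and 30.5 ± 1.46% in control for Ephb4. Efnb1 held 95.0 ± 0.794% of ephrin-B FPKM in EA and 81.3 ± 2.01% in control. None of the libraries overlapped between groups for these 7 shares. Within classes 5 to 7, Sema7a made up 75.8 ± 2.002% in EA and 8.91 ± 5.44% in control.

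**Figure D3:**
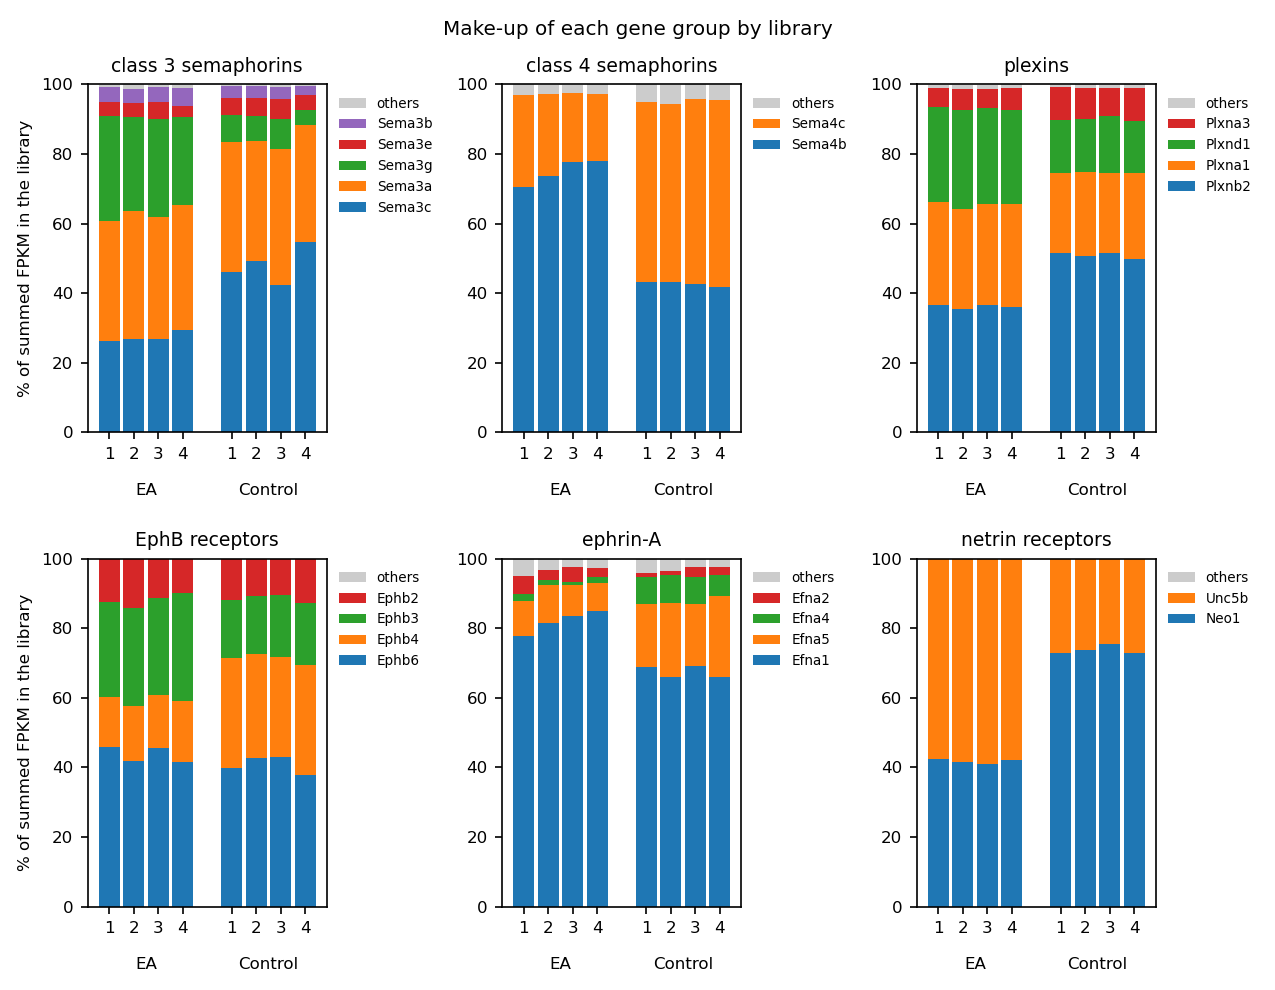
Share of the summed FPKM (vertical axis, percent) that each gene contributed within 6 groups of guidance genes, as 1 stacked bar for each EA library (left) and each control library (right). Genes under 5% in all libraries are pooled as others. The Unc5b, Sema3g and Sema4b portions are larger in all EA bars than in all control bars.

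Ligand and receptor genes of 13 pairs known to bind each other were set side by side. The pairs were chosen after the values were seen, and this is a description. In 7 pairs the ligand gene fell and the receptor gene rose: Sema3a and Nrp1, Sema3c and Nrp2, Sema3e and Plxnd1, Sema4d and Plxnb1, Slit2 and Robo1, Ntn1 and Unc5b, and Ntn1 and Neo1, where the Neo1 rise turns with library totals. In Efna1 and Epha2 the ligand rose and the receptor fell. Both members rose in Sema3g and Nrp2 and in Efnb1 and Ephb3, and both fell in Sema4c and Plxnb2 and in Efnb2 and Ephb4. In Sema7a and Plxnc1 the receptor was not called with TMM scaling.

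Within a library the FPKM ratio of ligand to receptor needs no scaling. The ratio of Ntn1 to Unc5b was 1.07 ± 0.0383 in EA and 11.6 ± 1.75 in control (SD, n = 4 each). That of Sema3c to Nrp2 was 0.238 ± 0.0202 in EA and 1.87 ± 0.384 in control, and that of Slit2 to Robo1 2.43 ± 0.273 in EA and 9.38 ± 1.15 in control. Efnb1 to Ephb3, where both genes rose, was at 1.62 ± 0.0838 in EA and 1.49 ± 0.128 in control. Other ratios were higher in EA: that of Efna1 to Epha2 was 0.855 ± 0.0514 in EA and 0.339 ± 0.0284 in control. That of Sema7a to Plxnc1 was 31.4 ± 20.2 in EA and 0.838 ± 0.643 in control. The Sema7a to Plxnc1 ratio rests on few reads. Plxnc1 had 10, 33, 23 and 27 reads in EA libraries 1 to 4, and Sema7a had 48 over the control libraries.

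**Figure D4:**
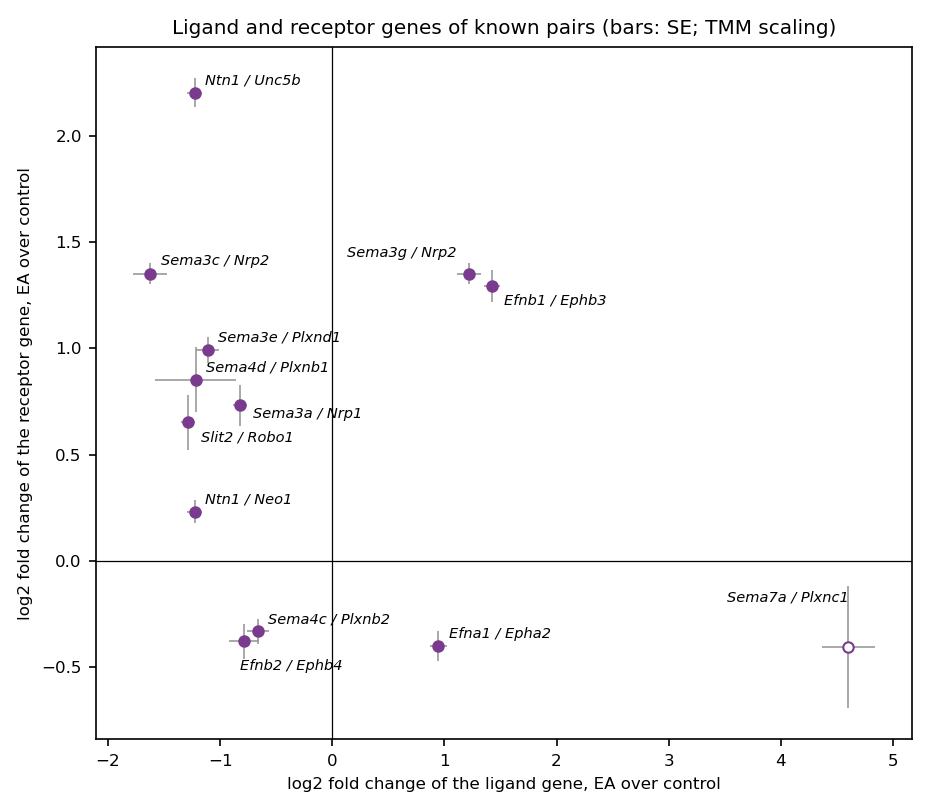
Log2 fold change of EA over control of the ligand gene (horizontal axis) and of the receptor gene (vertical axis) for 13 known pairs, with SE as bars and an open circle where the receptor was not called. The upper left area, ligand lower and receptor higher, holds 7 pairs, and Ntn1 with Unc5b is the highest of them.

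Effectors that carry guidance signals to the cytoskeleton moved in both directions. Of 54 tested genes in a list of such effectors 23 rose and 18 fell, which is 75.9% called against 67.2% of all tested genes (median log2 fold change 0.10). Mical2, an actin-oxidising enzyme of the family that acts below plexins, was 8.23-fold higher at 532 ± 25.02 CPM in EA and 64.7 ± 7.34 CPM in control (adjusted p = 3.33e-18). The exchange factor gene Spata13 rose 6.11-fold and Limk2, a kinase that inactivates cofilin, 2.94-fold (adjusted p = 5.54e-15 and 1.04e-14). Rnd1, a small GTPase that binds plexins, was 6.10-fold lower at 7.11 ± 1.90 CPM in EA and 43.7 ± 6.21 CPM in control (adjusted p = 3.89e-10). Dpysl2, a mediator of Sema3a signalling, was 2.69-fold lower and Arhgef11, a RhoA exchange factor bound by B plexins, 1.70-fold lower (adjusted p = 4.14e-10 and 1.08e-08).

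The deposited table also annotates genes with the KEGG pathway of axon guidance. Of 87 tested genes with this annotation that are not members, 33 rose and 27 fell, which is 69.0% and close to the 67.2% of all tested genes. The 3 with the lowest p in each direction were Nfatc4, Limk2 and Camk2b among higher genes and Wnt5a, Rnd1 and Dpysl2 among lower genes. Of those not yet given, Nfatc4 was 4.13-fold higher, the kinase subunit gene Camk2b 29.9-fold higher, at 29.0 ± 5.12 CPM in EA and 0.964 ± 0.383 CPM in control, and Wnt5a 4.49-fold lower (adjusted p = 6.93e-15, 3.53e-14 and 1.93e-14). With library totals the split was 20 higher and 57 lower in this set, and 15 higher and 30 lower among the effectors. Of all 11777 tested genes 1940 were then higher and 7196 lower, and how much of the fall is shared by all genes was not tested. The 2 lists share 27 tested genes.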

How the data were processed

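Poly(A) RNA of 8 libraries was sequenced. Per the submitters' processing notes, cutadapt 1.15, HISAT2 2.0.5 and build GRCm39 were used; the counting tool, strand setting and annotation are not given in the sources here. The deposited counts, whole reads for each gene, are the authors' own and not normalized. The deposited FPKM values were computed by the authors from count, gene length and column total, and 117047 of them recomputed from the counts deviated by at most 5.06e-15 in relative terms. The deposited gene length, in bases, is another column of the authors' table.

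Counts were tested in R 4.3.3 with edgeR 4.0.16 (TMM factors, default count filter by group, robust quasi-likelihood F test, Benjamini-Hochberg adjustment over 11777 genes, calls under 0.05), limma 3.58.1 and DESeq2 1.42.0 as alternatives. TMM factors ranged over 0.878 to 0.885 (EA) and 1.13 to 1.14 (control). Standard errors (SE) are the absolute log2 fold change over the root of F. CPM uses TMM scaling; levels of different genes are compared in FPKM. The biological coefficient of variation was 7.78%. Depth limits genes with few reads, and PCR duplicates were not identified, so errors cover the counted reads only. Library pairs of a group differed by more than sampling noise (chi-square per degree of freedom of 2.79 to 16.7). Steps were tested on simulated data in which few genes changed, at random in either direction. The choice of scaling was not tested by it. Figures were drawn with matplotlib 3.10.9.

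The members, families, effector and marker lists were chosen with earlier results of these data known, and the ligand and receptor pairs after the values were seen. Up to 3 called members per family and role by p, whose mean log2 CPM reached 1, and members that go against their family are given by library. From the effector and KEGG lists up to 3 genes per direction are named by p. Alternatives were other scaling factors, filters, tests and units, an adjusted p under 0.01, a replicate block and leaving out each library.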

Additional observations from a re-analysis of the deposited data

Results flagged for a closer look

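In 92 groups of 4 libraries (46 genes in EA and in control), 5 had a library far from the other 3, where chance flags about 1 in 20. Sema3b was at 9.39 CPM in EA library 4, with the other EA libraries at 6.99 to 7.16 CPM, and at 8.64 CPM in control library 4, with the other control libraries at 9.61 to 9.81 CPM. Plxnb1 was at 6.76 CPM in EA library 4, with the others at 8.39 to 8.60 CPM, and at 5.54 CPM in control library 3, with the others at 3.97 to 4.21 CPM. Plxna2 was at 11.6 CPM in EA library 2, with the others at 10.0 to 10.1 CPM. No cause was tested.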

How the results depend on the processing

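Of 37 called guidance genes, 30 kept direction and call wherever an alternative gave them a value, 34 when each library was left out and 31 under every other scaling or FPKM. Neo1 reversed with library totals (log2 fold change −0.13) and with limma on log2 FPKM with a pseudocount of 1 (−0.12) and 0.1 (−0.13), and lost its call with upper-quartile factors; scaling of this kind shifts all genes. Library totals shifted the median of all tested genes by −0.36, FPKM by −0.26 and −0.35, and upper-quartile factors by −0.16. Netrin family counts became 1 higher with upper-quartile factors, and 1 higher and 2 lower with library totals and both FPKM fits. The filter of CPM above 1 in all libraries gave no value for 5 called genes, Slit1 and 4 of those 30 (Sema7a, Efna2, Efna4 and Sema4d), so 26 were called the same way under every alternative. Slit and Robo counts became 0 higher with both FPKM fits, and 1 lower with CPM above 1 in all libraries or an adjusted p under 0.01. Effectors were 15 higher and 30 lower with library totals and 15 and 28 with both FPKM fits. Other axon guidance genes were 20 higher and 57 lower with library totals and 19 and 55 with both FPKM fits. All tested genes were 1940 higher and 7196 lower with library totals. With FPKM they were 1924 and 7170 with a pseudocount of 1, and 1922 and 7179 with 0.1. Leaving out 1 library gave 19 to 20 guidance genes higher and 16 to 20 lower, and 1 to 2 Slit and Robo genes lower. Replicate numbers are shared by the groups, and the labels do not tell whether same-numbered libraries were paired. Deviations of same-numbered libraries correlated by only −0.0215 to 0.0266. No shared replicate effect was thus seen, but this cannot show that the samples were not paired. With a replicate block 19 guidance genes were higher and 17 lower, Sema3b being no longer called (adjusted p = 0.0657, edgeR). Low read counts limit the 24 genes not tested.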

Other observations

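Of the 24 guidance genes left untested for low counts, 3 (Epha6, Epha7 and Unc5d) had no read, 12 had 1 to 20 reads over all libraries and 9 had more. In a fit without the filter on low counts, 3 of them passed an adjusted p under 0.05 (edgeR). Sema4f, a transmembrane semaphorin gene, had 44 reads in EA and 10 in control (log2 fold change 2.40; adjusted p = 0.000922). Epha8 had 13 reads in EA and 77 in control (−2.19; adjusted p = 0.00113), and Robo3 had 7 reads in EA and 33 in control (−1.83; adjusted p = 0.0380). These rest on few reads.

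Neighbouring guidance genes did not always share a direction. On chromosome 3, Efna1, Efna3 and Efna4 follow each other with no other gene of the table between them and gaps of 32.8 and 10.4 kb; Efna1 and Efna3 rose and Efna4 fell. On chromosome 5, Sema3a and Sema3e lie 423 kb apart with 1 gene between, and both fell. On chromosome 9, Sema3b and Sema3f lie 72.3 kb apart, and Sema3b was called lower while Sema3f was not called.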
